A study of Mus musculus with 11 samples.

Results

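The BCL-2 family decides whether mitochondria release the factors that start apoptosis, and the 10 genes described here are *Bcl2*, *Bcl2l1*, *Mcl1*, *Bcl2a1b*, *Bcl2a1d*, *Bak1*, *Bid*, *Bcl2l11*, *Pmaip1* and *Bmf*, chosen by symbol from the 52636 genes counted in every liver. RNA was sequenced from E15.5 fetal livers of mice on a C57BL/6N background, kept without treatment, in 4 genotypes: 3 wild-type livers (WT), 2 lacking TNF receptor 1 (TNFR1KO), 3 lacking caspase-8 and MLKL (Casp8 MLKL dKO) and 3 lacking caspase-8 and TNF receptor 1 (Casp8 TNFR1 dKO). The knockouts are germline alleles, present in every cell of the embryo and not restricted to a cell type. Neither the labels nor the methods say which embryos shared a litter, so p values measure the spread between these libraries.

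In this family, anti-apoptotic proteins (BCL-2, BCL-XL, MCL-1, A1) hold the effector proteins BAX and BAK in check at the outer mitochondrial membrane. BH3-only proteins such as BIM, NOXA, BMF and BID neutralize the anti-apoptotic proteins or activate the effectors, and BID links death receptors to mitochondria because caspase-8 cleaves it. The fetal liver at this age is a site of blood formation, where BCL-XL is known to protect maturing red cells and where neutrophils are known to use A1 and MCL-1. Transcript levels say nothing about the cleavage of BID or the binding of these proteins to each other.

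Gene counts totalled 23129212 to 35819339 reads a liver. Levels are given as CPM, counts scaled to a common library size after TMM normalization, and the 17243 genes with enough reads were tested in 1 edgeR quasi-likelihood fit of the 4 genotypes, with a call at a Benjamini-Hochberg adjusted p under 0.05. *Casp8* measured 27.7 to 33.9 CPM in the 5 livers with an intact gene, 7.82 to 10.2 in Casp8 MLKL dKO and 11.5 to 21.9 in Casp8 TNFR1 dKO livers. *Mlkl* measured 0.730 to 1.22 CPM in Casp8 MLKL dKO and at least 3.68 in every other liver. *Tnfrsf1a*, which encodes TNF receptor 1, measured 49.8 and 50.5 CPM in TNFR1KO against 47.1 to 53.4 in WT, 45.4 to 77.2 in Casp8 MLKL dKO and 76.0 to 425 in Casp8 TNFR1 dKO livers. Both genotypes without the receptor thus had levels within or above the WT range, and reads on this gene give no check of it. The highest *Tnfrsf1a* level of all livers (425 CPM) and the highest *Casp8* level among livers without caspase-8 (21.9 CPM) were both in Casp8 TNFR1 dKO replicate 3. This liver stood apart from the other 10 livers: across genes, its log2 CPM correlated with theirs at r = 0.840 to 0.891, where any pair of the others reached at least 0.949. It was also the only liver that expressed *Xist* (3409 CPM against at most 0.570) and striated muscle actin *Acta1* at a high level (534 CPM against at most 6.07). Genes of the Y chromosome had 109 counts in it and 4161 to 7976 in each of the other 10 livers. By these reads it was the only female liver, and its sex cannot be told apart from its other differences. In this liver alone, 34.5% of tested genes were above and 40.0% below all 8 livers of the other 3 genotypes. Casp8 MLKL dKO replicate 1 also departed from its own group. The chi-square of its counts against those of its replicates was 430 and 300.4 per degree of freedom, against 417 and 447 for Casp8 TNFR1 dKO replicate 3 and 6.45 to 15.1 for the other pairs within a genotype. The TMM factors of these 2 livers were 0.812 and 0.758, where the others had 1.01 to 1.09. Results for the family that rest on either liver are given with and without it.

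The A1 genes come first because their sequences bear on what could be counted. *Bcl2a1b* (ENSMUSG00000089929, chromosome 9, 89199209 to 89207827, plus strand, GRCm38) and *Bcl2a1d* (ENSMUSG00000099974, chromosome 9, 88723285 to 88731914, minus strand) are near-identical copies, together with their relative *Bcl2a1a*. The first 240 bases of the 3 coding sequences are shown from the GENCODE M21 transcripts, with capitals where a base differs from *Bcl2a1b*. They come from chr9:89199360-89199599 on the plus strand (*Bcl2a1b*), chr9:88731480-88731719 on the minus strand (*Bcl2a1d*) and chr9:88957051-88957290 on the plus strand (*Bcl2a1a*).
Bcl2a1b: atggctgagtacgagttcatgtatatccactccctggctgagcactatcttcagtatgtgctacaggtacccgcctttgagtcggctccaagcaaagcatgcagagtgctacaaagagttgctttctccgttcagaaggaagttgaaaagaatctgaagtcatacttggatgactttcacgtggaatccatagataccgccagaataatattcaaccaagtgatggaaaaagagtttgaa
Bcl2a1d: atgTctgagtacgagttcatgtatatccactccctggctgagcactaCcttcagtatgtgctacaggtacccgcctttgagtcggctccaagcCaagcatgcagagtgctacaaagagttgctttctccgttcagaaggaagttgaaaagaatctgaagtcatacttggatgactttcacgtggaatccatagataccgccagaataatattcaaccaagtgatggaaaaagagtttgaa
Bcl2a1a: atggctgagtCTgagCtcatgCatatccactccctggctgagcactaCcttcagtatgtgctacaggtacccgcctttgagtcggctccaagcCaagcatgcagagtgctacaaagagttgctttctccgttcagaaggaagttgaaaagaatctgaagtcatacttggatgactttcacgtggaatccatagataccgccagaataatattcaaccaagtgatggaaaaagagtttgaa
Over the whole coding sequence of 516 bases, *Bcl2a1d* differed from *Bcl2a1b* at 6 bases (98.8% identity) and *Bcl2a1a* at 11 (97.9%). The longest stretch without a difference was 217 bases in both, longer than a read.

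No read was counted on *Bcl2a1b* or *Bcl2a1d* in any of the 11 livers. A count of 0 allows up to 3 counts, or 0.0821 to 0.171 CPM depending on the library, as a limit for counting error only. Of the 50-base stretches of their transcripts, 79.2% and 79.5% also occurred in other genes, mainly in each other and in *Bcl2a1a*, and uniquely mapped reads leave those stretches out. The remaining stretches occurred in no other gene, yet gave no counts either. Another annotated gene, *Gm29094*, overlaps 49.1% of the exon bases of *Bcl2a1b* on the same strand and was also at 0 in every liver. The other A1 copies were near 0 as well: *Bcl2a1a* had 1 count in each of 2 Casp8 TNFR1 dKO livers and *Bcl2a1c* 1 count in a TNFR1KO liver. A level of A1 transcripts was therefore not measurable with these counts, and the 10 neutrophil markers examined summed to 1128 to 14656 CPM in the same livers.

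The other 8 members were all counted well enough to be tested. Per kilobase of exon, which allows genes to be set side by side, the anti-apoptotic *Bcl2l1* and *Mcl1* were the most abundant members in WT livers, at 106 ± 5.19 and 84.3 ± 1.26 CPM per kb (SD, n = 3 each). The effector *Bak1* followed at 20.2 ± 0.905 and *Bid* at 17.5 ± 0.727 CPM per kb (SD, n = 3 each), and their ranges did not overlap. *Bcl2l11*, which encodes the BH3-only protein BIM, stood at 5.34 ± 0.209, *Bmf* at 1.62 ± 0.323 and *Pmaip1*, which encodes NOXA, at 1.39 ± 0.243 CPM per kb (SD, n = 3 each). The ranges of *Bmf* and *Pmaip1* overlapped, and *Bcl2* itself was the lowest counted member at 0.628 ± 0.126 CPM per kb (SD, n = 3).

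Taken as shares of the summed CPM per kb of the members, *Bcl2*, *Bcl2l1* and *Mcl1* together made up 80.3 to 80.8% of the family in WT livers, 79.4 and 80.2% in TNFR1KO livers and 76.8 to 78.2% in Casp8 MLKL dKO livers. In Casp8 TNFR1 dKO livers the share was 68.2% in replicate 1, 68.8% in replicate 2 and 92.2% in replicate 3. The first 2 of these livers lay below and the third above all 8 others. In replicates 1 and 2, *Bak1* made up 16.0 and 15.0% of the family and *Bid* 10.2 and 10.5%, where *Bak1* made up 8.23 to 10.5% and *Bid* 7.10 to 8.44% in the 8 livers of the other genotypes. In replicate 3, *Bcl2l1* alone made up 70.6% of the family, against 34.6 to 46.0% in the other 10 livers.

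**Figure D1:**
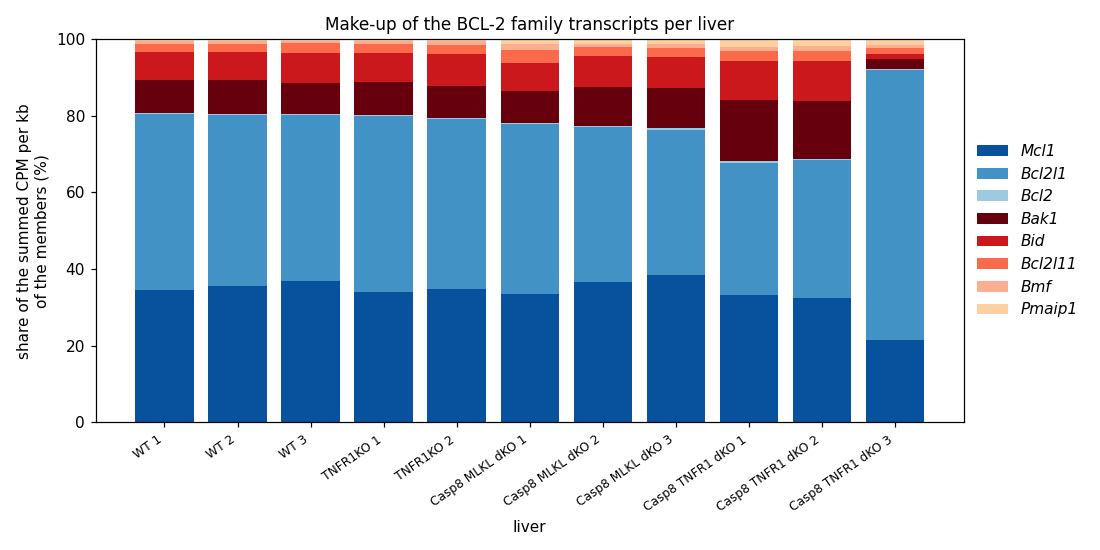
Stacked bars give each counted member's share (%) of the summed CPM per kb of the members in each of the 11 livers, with anti-apoptotic members in blue and the effector and BH3-only members in red and orange. Replicates 1 and 2 of Casp8 TNFR1 dKO show wider *Bak1* and *Bid* segments, and *Bcl2l1* fills 70.6% of the bar of replicate 3.

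Against WT, 1 of the 8 tested members was called in Casp8 TNFR1 dKO livers, *Pmaip1*, which was higher; 5.8% of all genes tested were called in this comparison, and 5.1% were called higher. Against TNFR1KO livers *Pmaip1* was again the only member called, where 2.17% of all genes were called. Against Casp8 MLKL dKO livers no member was called by edgeR, where 1.65% of all genes were called. There 1 member had an unadjusted p under 0.05 (15.3% of all genes), and DESeq2's Wald test called 1 (5.56% of all genes). The log2 fold changes of all 8 tested members were above 0 in each comparison. Of the 17243 genes tested, 8597 were above 0 against WT, 8424 against TNFR1KO and 8089 against Casp8 MLKL dKO. The medians of the 8 members were 0.59, 0.53 and 0.42 in the same order, where the median of all genes lay between -0.03 and 0.00. *Bid* against WT was at 0.01. The 3 comparisons share the Casp8 TNFR1 dKO livers. Without replicate 3, 6 of the 8 values were positive in each comparison, with *Bcl2l1* and *Mcl1* negative. The share of all genes above 0 in that fit is not given here. In that fit *Bak1*, *Bid* and *Pmaip1* were called higher against WT (9.83% of all genes were called), *Bak1* and *Pmaip1* against TNFR1KO (5.19%), and *Bak1* and *Bid* but not *Pmaip1* against Casp8 MLKL dKO (3.17%). Without Casp8 MLKL dKO replicate 1 the member calls were those of all livers, *Pmaip1* against WT (9.45% of all genes were called) and against TNFR1KO (4.38%) and none against Casp8 MLKL dKO (3.3%). In the last comparison 2 members, *Bmf* and *Pmaip1*, had an unadjusted p under 0.05. The share of all genes with such a p in that fit is not given here, and with all livers it was 15.3%. A fit that weights each library by its quality (limma-voom) called 7 of the 8 members against WT, 5 higher and 2 lower, where it called 30.6% of all genes. It called 4 members higher against TNFR1KO (25.1% of all genes) and 3 higher against Casp8 MLKL dKO (15.7% of all genes).

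**Figure D2:**
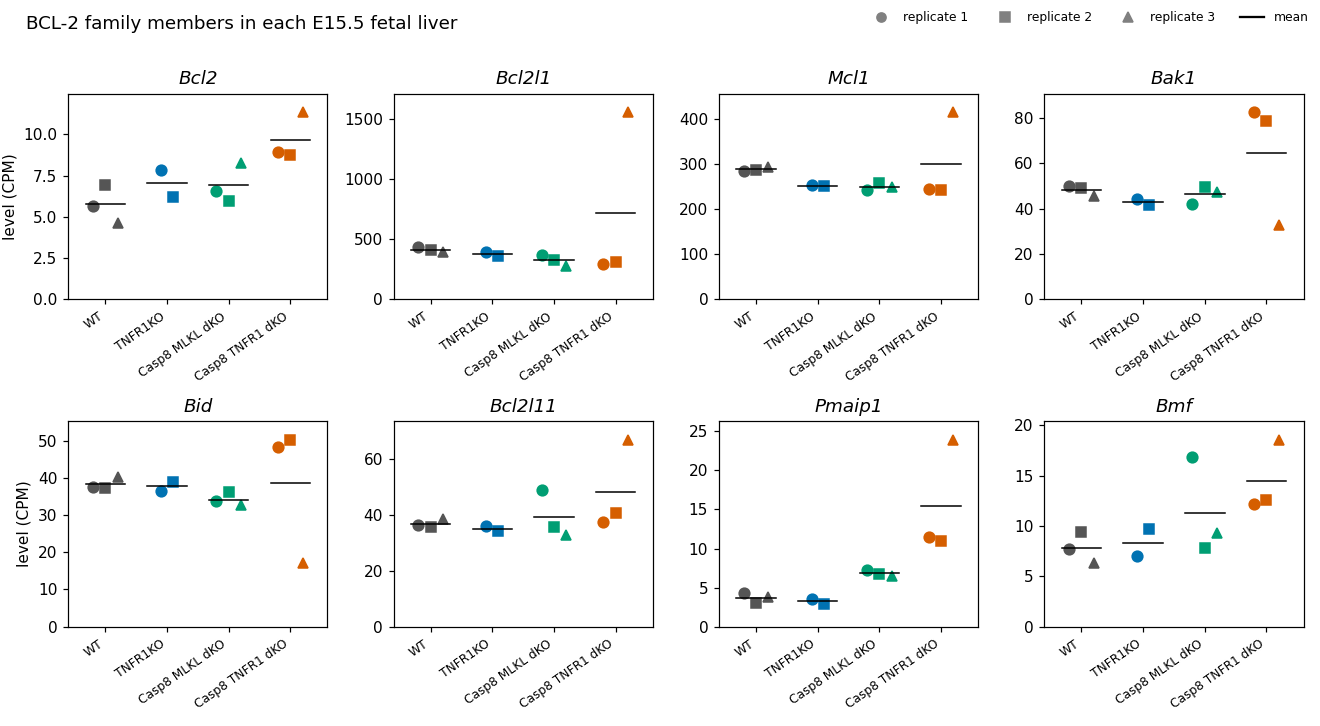
Each panel plots the level of 1 member in CPM (vertical axes, from 0) in every liver by genotype, with the marker shape giving the replicate number and a line at the genotype mean. *Pmaip1* and *Bcl2* lie above the other genotypes in all 3 Casp8 TNFR1 dKO livers, whereas replicate 3 leaves its group in opposite directions for *Bcl2l1* (1553 CPM) and for *Bak1* (32.8 CPM) and *Bid* (17.1 CPM).

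*Pmaip1* (ENSMUSG00000024521, chromosome 18, 66458533 to 66465565, plus strand) encodes NOXA, a BH3-only protein that binds mainly MCL-1 and is known as a p53 target. It was counted 72 to 131 times in each WT and TNFR1KO liver, 170 to 234 times in Casp8 MLKL dKO and 317 to 420 times in Casp8 TNFR1 dKO livers. Its levels were 4.30, 3.02 and 3.75 CPM in WT replicates 1 to 3, 3.58 and 2.92 in TNFR1KO, 7.22, 6.80 and 6.50 in Casp8 MLKL dKO and 11.5, 10.9 and 23.9 in Casp8 TNFR1 dKO. The genotypes thus fell into 3 levels that did not overlap, with WT and TNFR1KO overlapping at the bottom and Casp8 TNFR1 dKO at the top. The share of all genes with such levels is not given here. In the means, *Pmaip1* was at 15.4 ± 7.36 CPM (SD, n = 3) in Casp8 TNFR1 dKO, 6.84 ± 0.361 (SD, n = 3) in Casp8 MLKL dKO, 3.25 ± 0.465 (SD, n = 2) in TNFR1KO and 3.69 ± 0.644 (SD, n = 3) in WT livers.

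*Pmaip1* rose 4.17-fold against WT, or by 2.06 on the log2 scale (standard error 0.313, edgeR adjusted p = 0.00569), and was called in 20 of 20 alternative settings, with values from 1.61 to 2.27. Against TNFR1KO livers it was 2.24 higher on that scale (standard error 0.367, edgeR adjusted p = 0.0142). That call was lost in 3 of 20 settings, namely without either TNFR1KO liver (adjusted p = 0.187 without replicate 1 and 0.237 without replicate 2) and with only those genotypes in the fit (0.202). Against Casp8 MLKL dKO livers the value was 1.17 (standard error 0.303, edgeR adjusted p = 0.101), not called, and it was called in 2 of 20 settings. It was not called without Casp8 TNFR1 dKO replicate 3 (0.71, edgeR adjusted p = 0.0602) or without Casp8 MLKL dKO replicate 1 (1.21, edgeR adjusted p = 0.129). Between Casp8 MLKL dKO and WT livers *Pmaip1* differed by 0.89 on the log2 scale (standard error 0.306, edgeR adjusted p = 0.875), also not called. The 3 livers of each of these genotypes did not overlap, and the share of all genes with such a split is not given here. Over the 3 Casp8 TNFR1 dKO livers against the 8 others, the mean log2 CPM was 1.67 higher (exact two-sided permutation test, p = 0.00606, the smallest p that 3 livers against 8 allow). Without replicate 3 the difference was 1.30 (exact permutation p = 0.0222, the smallest for 2 livers against 8). All 3 Casp8 TNFR1 dKO livers lay above all 8 others in 7.43% of tested genes.

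In these whole livers, fewer cells of a type and less RNA per cell cannot be told apart. Neutrophil markers followed *Pmaip1* only in part. Their 10 genes summed to 5279, 6520 and 14656 CPM in Casp8 TNFR1 dKO livers and to 1128 to 1638 CPM in WT and TNFR1KO livers. In Casp8 MLKL dKO they summed to 3415, 1311 and 1436 CPM, so replicates 2 and 3 lay within the WT and TNFR1KO range. The part of these markers in the result was not tested. In Casp8 TNFR1 dKO replicates 1 and 2, 9 of the 10 markers were above all 8 livers of the other genotypes. In replicate 3, 5 markers were above and 3 below all other 10 livers, with *S100a8* at 3297 and *Mpo* at 53.4 CPM.

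The genes whose log2 CPM followed *Pmaip1* most closely over the 11 livers were *Nfkb2* (Pearson's r = 0.989), which encodes an NF-kB subunit precursor, *Rnf19b* (r = 0.974), an E3 ubiquitin ligase gene, and *Kctd17* (r = 0.972). These are descriptions over 11 livers that share their genotypes. Within the 8 livers other than Casp8 TNFR1 dKO, the same 3 genes had r = 0.955, 0.921 and 0.891. *Nfkb2* measured 13.5 to 17.1 CPM in WT and TNFR1KO livers, 22.2 to 25.3 in Casp8 MLKL dKO and 28.8 to 48.7 in Casp8 TNFR1 dKO livers. These were the same 3 levels without overlap, in a gene picked for its likeness to *Pmaip1*. Over the 8 livers alone the closest genes were *Btbd11* (r = 0.986), *Nfkbie* (r = 0.978), which encodes an inhibitor of NF-kB, and *Batf* (r = 0.970), and over all 11 livers these had r = -0.07, 0.903 and 0.783. *Btbd11* was 3.82 to 5.43 CPM in Casp8 MLKL dKO but 1.03 to 1.14 in Casp8 TNFR1 dKO livers, near the 1.17 to 1.77 CPM of WT and TNFR1KO livers.

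**Figure D3:**
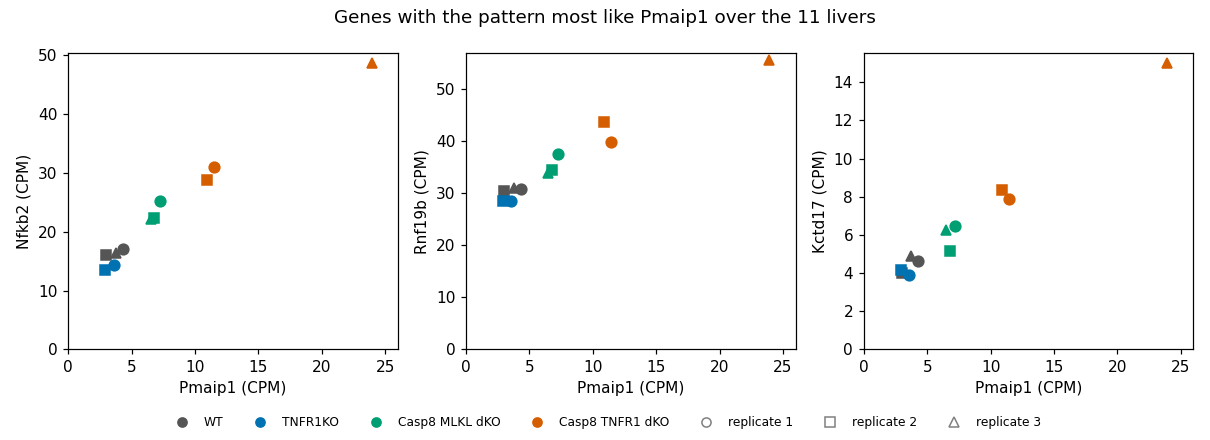
The 3 panels plot *Nfkb2*, *Rnf19b* and *Kctd17* (vertical axes, CPM) against *Pmaip1* (horizontal axes, CPM), with 1 point per liver, coloured by genotype and shaped by replicate number. Casp8 TNFR1 dKO replicate 3 is the point farthest to the right at 23.9 CPM, and the Casp8 MLKL dKO livers lie between the other Casp8 TNFR1 dKO livers and the WT and TNFR1KO livers.

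*Bmf* (ENSMUSG00000040093, chromosome 2, 118528757 to 118549687, minus strand) encodes a BH3-only protein that is known to respond to loss of attachment. Its levels were 7.76, 9.43 and 6.31 CPM in WT, 7.03 and 9.69 in TNFR1KO, 16.8, 7.85 and 9.33 in Casp8 MLKL dKO and 12.2, 12.6 and 18.6 in Casp8 TNFR1 dKO livers. The Casp8 TNFR1 dKO livers were above all WT and TNFR1KO livers, and Casp8 MLKL dKO replicate 1 overlapped them. How many of all genes have such levels is not given here. The log2 fold change against WT was 0.88 (standard error 0.316, edgeR adjusted p = 0.128), not called. Against all 8 other livers the difference in mean log2 CPM was 0.67 (exact two-sided permutation test, p = 0.0485), and without replicate 3 it was 0.48 (exact permutation p = 0.20). Without Casp8 MLKL dKO replicate 1, the log2 fold change of *Bmf* was 0.89 against WT (edgeR adjusted p = 0.0521) and 0.75 against Casp8 MLKL dKO (adjusted p = 0.198), from 0.35 (adjusted p = 0.603) with it, called in none of these.

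*Bcl2l11* (ENSMUSG00000027381, chromosome 2, 128126038 to 128162547, plus strand) encodes BIM, which binds every anti-apoptotic member. It measured 36.3, 35.8 and 38.5 CPM in WT, 35.9 and 34.3 in TNFR1KO, 48.9, 35.6 and 32.8 in Casp8 MLKL dKO and 37.5, 40.6 and 66.9 in Casp8 TNFR1 dKO livers. Only replicate 3 of Casp8 TNFR1 dKO lay above all 8 others, and the log2 fold change against WT was 0.39 (standard error 0.230, edgeR adjusted p = 0.310) with it and 0.09 (standard error 0.156, adjusted p = 0.781) without it. Among the 8 livers of the other genotypes, Casp8 MLKL dKO replicate 1 had the highest level of both *Bmf* and *Bcl2l11*. That liver also had the highest sums of hepatocyte, macrophage and B-lineage markers of all 11 livers, with 208238 CPM over 9 hepatocyte markers against 50574 to 101677 in the others, and the part of these in the result was not tested. Between Casp8 MLKL dKO and WT livers, the log2 fold change of *Bcl2l11* was 0.09 (edgeR adjusted p = 0.984) with this liver and -0.11 (adjusted p = 1.0) without it, and that of *Bmf* 0.53 (adjusted p = 0.905) and 0.13 (adjusted p = 1.0).

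*Bid* (ENSMUSG00000004446, chromosome 6, 120891930 to 120916853, minus strand) encodes the BH3-only protein that caspase-8 cleaves. It measured 37.6, 37.3 and 40.2 CPM in WT, 36.6 and 38.9 in TNFR1KO, 33.7, 36.2 and 32.7 in Casp8 MLKL dKO and 48.3, 50.3 and 17.1 in Casp8 TNFR1 dKO livers. Replicates 1 and 2 of Casp8 TNFR1 dKO were above and replicate 3 was below all other livers, so the group mean, 38.6 ± 18.6 CPM (SD, n = 3), lay next to that of WT, 38.3 ± 1.59 (SD, n = 3). With all livers the log2 fold change against WT was 0.01 (standard error 0.318, edgeR adjusted p = 0.985). Without replicate 3 it was 0.37 (standard error 0.0877, edgeR adjusted p = 0.0291) against WT, 0.53 (0.0875, adjusted p = 0.0128) against Casp8 MLKL dKO and 0.39 (0.0968, adjusted p = 0.0539, not called) against TNFR1KO.

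*Bak1* (ENSMUSG00000057789, chromosome 17, 27019810 to 27029009, minus strand) encodes the effector BAK, which permeabilizes the outer mitochondrial membrane. Its levels were 49.9, 49.0 and 45.8 CPM in WT, 44.1 and 41.8 in TNFR1KO, 42.2, 49.6 and 47.5 in Casp8 MLKL dKO and 82.5, 78.8 and 32.8 in Casp8 TNFR1 dKO livers. The split was that of *Bid*, with replicates 1 and 2 above and replicate 3 below all other livers, a pattern of 1.77% of tested genes. With all livers the log2 fold change against WT was 0.42 (standard error 0.282, edgeR adjusted p = 0.365). Without replicate 3, *Bak1* was called higher in all 3 comparisons, by 0.75 against WT (standard error 0.0920, edgeR adjusted p = 0.00131), 0.91 against TNFR1KO (0.103, adjusted p = 0.00148) and 0.80 against Casp8 MLKL dKO (0.0919, adjusted p = 0.00204).

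Over the 8 other livers, the mean log2 CPM of *Bak1* was 0.80 lower and that of *Bid* 0.43 lower than in Casp8 TNFR1 dKO replicates 1 and 2 (exact two-sided permutation test, p = 0.0222 for both, the smallest p for 2 livers against 8). Replicates 1 and 2 were both above all 8 in 10.7% of tested genes. Part of both genes is overlapped by a gene on the opposite strand, *Ggnbp1* over 25.5% of the exon bases of *Bak1* and *Bcl2l13* over 17.7% of those of *Bid*. The use of strand in counting is not given in the sources used here, and without strand the reads of such a pair cannot be told apart. *Ggnbp1* was at 1.77 to 4.50 CPM in every liver, far below *Bak1*. *Bcl2l13* was at 169 to 218 CPM, above *Bid*, and its log2 fold change without replicate 3 was -0.23 against WT (edgeR adjusted p = 0.238), opposite in sign to that of *Bid*. Levels of whole genes do not show which reads fell on the shared bases, and the part of the overlap was not tested.

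*Bcl2l1* (ENSMUSG00000007659, chromosome 2, 152780668 to 152831728, minus strand) encodes BCL-XL. It was counted 27256 times in Casp8 TNFR1 dKO replicate 3 and 7273 to 14242 times in the other livers. Its levels were 433, 408 and 393 CPM in WT, 390 and 362 in TNFR1KO, 367, 323 and 278 in Casp8 MLKL dKO and 291, 307 and 1553 in Casp8 TNFR1 dKO livers. Replicate 3 lay above all other livers, whereas replicates 1 and 2 lay below all WT and TNFR1KO livers and within the range of Casp8 MLKL dKO livers. In 34.5% of tested genes replicate 3 was above all 8 livers of the other genotypes. For the levels of replicates 1 and 2, such a share is not given here. The log2 fold change against WT was 0.80 (standard error 0.545, edgeR adjusted p = 0.374) with replicate 3 and -0.45 (standard error 0.124, adjusted p = 0.0528) without it, called in neither fit. With a quality weight for each library in limma-voom, the value was also -0.45, and *Bcl2l1* was called lower (adjusted p = 0.00835).

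Red cell markers followed *Bcl2l1* only in part. The 10 erythroid markers summed to 181186 CPM in Casp8 TNFR1 dKO replicate 3, to 39775 and 41028 in replicates 1 and 2, to 42035 to 50026 in Casp8 MLKL dKO and to 48298 to 67645 CPM in WT and TNFR1KO livers. In replicate 3, 7 of the 10 markers, the globin genes among them, were above all other livers. The 3 below all other livers were *Klf1* (81.0 CPM), *Gata1* (96.5 CPM) and *Epor* (82.6 CPM). All 10 striated muscle markers and 5 of 8 endothelial markers were also above all other livers there, with 1 endothelial marker below. Of 12 macrophage markers, 9 were below and 1 was above all other livers. The part of these markers in the levels of *Bcl2l1*, *Bak1* and *Bid* was not tested.

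*Mcl1* (ENSMUSG00000038612, chromosome 3, 95658788 to 95663176, plus strand) encodes a short-lived anti-apoptotic protein that many blood cell progenitors require. It measured 285, 287 and 293 CPM in WT, 254 and 250.02 in TNFR1KO, 243, 257 and 249 in Casp8 MLKL dKO and 245, 242 and 414 in Casp8 TNFR1 dKO livers. The WT livers were above every liver of the other genotypes except replicate 3 of Casp8 TNFR1 dKO. How many of all genes show such a split is not given here. The log2 fold change against WT was 0.06 (standard error 0.20, edgeR adjusted p = 0.861) with replicate 3 and -0.23 (standard error 0.0787, adjusted p = 0.101) without it. For Casp8 MLKL dKO it was -0.21 (standard error 0.20, adjusted p = 0.942) and for TNFR1KO -0.19 (standard error 0.224, adjusted p = 1.0), none of them called.

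*Bcl2* (ENSMUSG00000057329, chromosome 1, 106538178 to 106714274, minus strand), the founding anti-apoptotic member, was counted 118 to 293 times per liver. Its levels were 5.65, 6.96 and 4.65 CPM in WT, 7.82 and 6.23 in TNFR1KO, 6.57, 5.99 and 8.26 in Casp8 MLKL dKO and 8.94, 8.78 and 11.3 in Casp8 TNFR1 dKO livers. All 3 Casp8 TNFR1 dKO livers were above all 8 others, as they were in 7.43% of tested genes. The difference in mean log2 CPM was 0.58 (exact two-sided permutation test, p = 0.00606, the smallest p that 3 livers against 8 allow). The log2 fold change against WT was 0.75 (standard error 0.223, edgeR adjusted p = 0.0797), not called, while DESeq2's Wald test called it (0.76, adjusted p = 0.0173), as it did 14.0% of all genes in this comparison. Without replicate 3 the difference from the 8 others was 0.46 (exact permutation p = 0.0667).

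**Figure D4:**
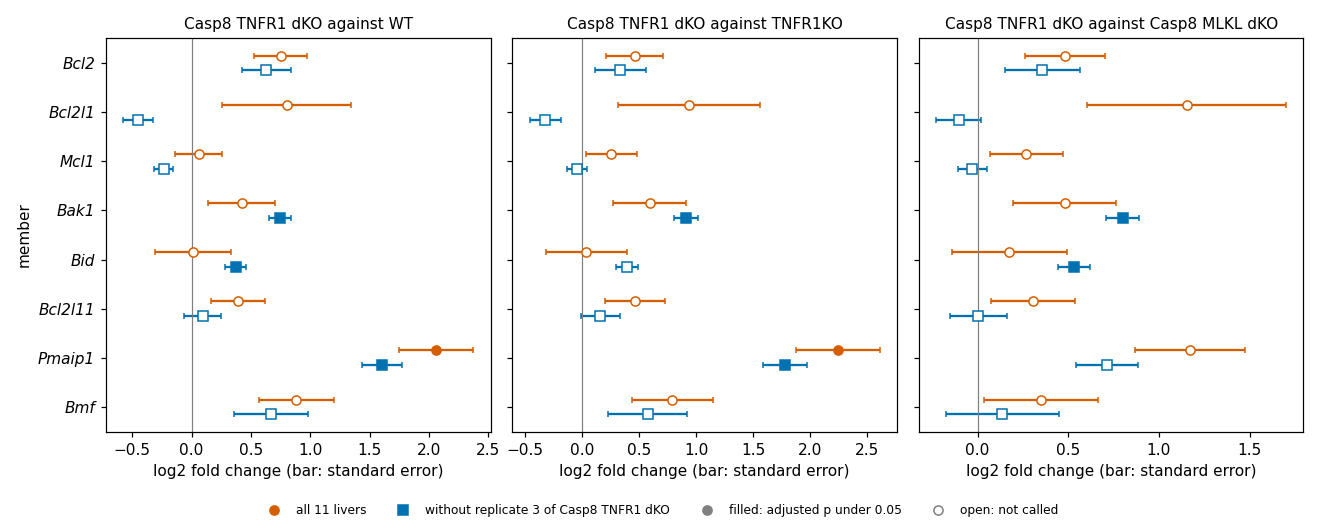
Log2 fold changes of the 8 tested members in Casp8 TNFR1 dKO livers against each other genotype (1 panel each) are plotted with bars of 1 standard error, for all 11 livers (circles) and without replicate 3 (squares), filled where the adjusted p was under 0.05. *Pmaip1* is the only member filled with all livers, *Bak1* is filled in all 3 panels without replicate 3, and *Bcl2l1* and *Mcl1* change sign between the fits.

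Between Casp8 MLKL dKO and WT livers none of the 8 tested members was called by edgeR, 1 had an unadjusted p under 0.05 (5.63% of all genes), and 0.0058% of all genes were called. Without Casp8 MLKL dKO replicate 1 edgeR again called 0 members, 1 had an unadjusted p under 0.05, and 0.0% of all genes were called. The share of all genes with an unadjusted p under 0.05 in that fit is not given here. DESeq2 called 0 members and 0.532% of all genes. With quality weights in limma-voom, *Pmaip1* was called higher and *Bcl2l1* lower, where 6.04% of all genes were called. Between TNFR1KO and WT livers edgeR and DESeq2 called 0 members, none had an unadjusted p under 0.05 (1.08% of all genes), and 0.0% of all genes were called by either tool.

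The rest of the apoptosis pathway was read from 3 lists. Over all 17243 genes tested, 5.1% were called higher and 0.702% lower against WT, with a median log2 fold change of -0.0015. Of 16 other BCL-2 family genes, 11 were tested, and against WT 1 was called higher in Casp8 TNFR1 dKO livers and 0 lower, with a median log2 fold change of 0.02. That gene was *Bok*, a relative of the effectors BAX and BAK, at 4.33, 6.88 and 8.49 CPM against 2.52 to 3.26 in WT livers (log2 fold change 1.15, standard error 0.279, edgeR adjusted p = 0.0416). The effector gene *Bax* measured 37.2 to 43.7 CPM against 33.0 to 40.3 in WT livers (0.12, standard error 0.138, adjusted p = 0.586). *Bbc3*, which encodes the BH3-only protein PUMA, another p53 target, measured 5.77, 5.99 and 40.1 CPM against 5.72 to 6.27 in WT livers. Its log2 fold change was 1.53 with replicate 3 (standard error 0.646, edgeR adjusted p = 0.182) and -0.01 without it (0.160, adjusted p = 0.969).

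Of 12 genes of the apoptosome, the executioner caspases and their inhibitors, all 12 were tested, 1 was called higher and 0 lower, and the median was -0.20. *Birc3*, which encodes the ubiquitin ligase cIAP2 and is a known NF-kB target, measured 27.4, 28.5 and 63.3 CPM against 12.5 to 13.4 in WT livers (log2 fold change 1.59, standard error 0.340, edgeR adjusted p = 0.0254). Of 9 genes of death receptor signaling, 8 were tested, 2 were called higher and 0 lower, and the median was 0.56. For both lists, the values over all genes are those given above (5.1% higher, median -0.0015). *Tnf*, the ligand of TNF receptor 1, measured 4.61, 3.99 and 2.17 CPM against 0.237 to 0.960 in WT livers (2.69, standard error 0.546, adjusted p = 0.0203). *Tnfsf10*, which encodes the death ligand TRAIL, measured 7.41, 6.16 and 1.48 CPM against 0.691 to 0.713 (2.83, standard error 0.649, adjusted p = 0.0337). Against TNFR1KO livers, *Bok* and *Tnf* were called (2.17% of all genes), and against Casp8 MLKL dKO livers 0 genes of the 3 lists (1.65%). These calls moved more than those of *Pmaip1* between settings. No list gene was called against WT without WT replicate 2 or 3, fits whose share of all genes is not given here. Against WT, 8 were called without Casp8 TNFR1 dKO replicate 3 (9.83% of all genes) or without Casp8 MLKL dKO replicate 1 (9.45%).

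RefSeq promoter windows (GRCm38.p6, 250 bases before to 50 after the start) were given for 9 of the 10 members, in 14 windows. They were searched on both strands for 6 motifs. GGGAANNNCC, an NF-kB site, occurred in 5.78% of all 32851 windows and among the members in *Bak1*. Its window, chr17:27028578-27028877 on the minus strand, is shown with the match in capitals, read on the other strand 78 bases before the start.
Bak1: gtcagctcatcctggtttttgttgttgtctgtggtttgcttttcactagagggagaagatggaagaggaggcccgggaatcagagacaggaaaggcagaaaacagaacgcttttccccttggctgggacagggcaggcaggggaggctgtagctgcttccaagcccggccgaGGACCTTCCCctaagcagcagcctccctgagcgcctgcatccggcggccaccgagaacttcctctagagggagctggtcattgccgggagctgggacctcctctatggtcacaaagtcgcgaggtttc
GAAANNGAAA, the core of interferon-stimulated response elements (3.44% of all windows), TTCNNNGAA, the STAT site (8.3%), and CACGTG, the E-box (7.15%), occurred in 0 member windows. CATG, the core of p53 half-sites (61.1%), occurred in 4 member windows, of *Bcl2l1*, *Bcl2a1b* and *Bcl2a1d*, and GCGTGGGCG, the EGR site (0.612%), in 2, those of *Bcl2a1b* and *Bcl2a1d*. A match describes letters and not a bound site.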

How the data were processed

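Single-end reads were aligned by the authors to GRCm38 (mm10) with GSNAP, and raw exonic counts per Ensembl gene were deposited by the authors for 11 livers. The exon width in bases beside them, also deposited, was used for CPM per kb. The RPKM values were not used. The counting tool, annotation release and use of strand are not given in the sources used here, and the labels and the methods name different library kits. Names and positions came from GENCODE M 21, which holds 52403 of the 52636 genes.

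filterByExpr (minimum count 10) kept 17243 genes. Counts were fitted by edgeR 4.0.16 in R 4.3.3 (TMM, glmQLFit, glmQLFTest) with genotype as the only factor. Standard errors were taken from the fold change and the F statistic. Log2 CPM used a prior count of 2. Alternatives were DESeq2 1.42.0 size factors or Wald test, hemoglobin genes left out of library sizes, limma 3.58.1 voom with or without quality weights, other filters, only the compared genotypes, a replicate block and each liver left out. Pathway list counts were recomputed under these settings after the data had been seen. Fits were tested on simulated data.

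The members, lists and tests were chosen with earlier results of these data known. All 10 members are named. Genes named from the lists are those called against WT, up to 4 a list, besides *Bax* and *Bbc3*, and genes most like the member with the smallest p. Genes that overlap or share sequence with a member were named after their values were seen.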

Additional observations from a re-analysis of the deposited data

How the results depend on the processing

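The call of *Pmaip1* against WT held in 20 of 20 settings. Counts of called members moved as follows. DESeq2's Wald test called 2 members against WT (*Bcl2* and *Pmaip1*), and 1 against Casp8 MLKL dKO. Quality weights in limma-voom called 7 members against WT (5 higher, 2 lower), 4 against TNFR1KO, 3 against Casp8 MLKL dKO and 2 between Casp8 MLKL dKO and WT. Both tools also called more of all genes, with the shares given above. With these weights *Bcl2l1* (-0.45) and *Mcl1* (-0.23) had the opposite sign against WT to that with equal weights. With only the compared genotypes fitted, 0 members were called against TNFR1KO. With each liver left out in turn, 1 to 3 members were called against WT, 0 to 2 against TNFR1KO and 0 to 2 against Casp8 MLKL dKO, the highest counts without Casp8 TNFR1 dKO replicate 3. Without that liver the exact permutation test against the 8 others gave 0.46 for *Bcl2* (p = 0.0667), 0.80 for *Bak1* (p = 0.0222), 0.43 for *Bid* (p = 0.0222, from -0.08 with all livers) and 0.48 for *Bmf* (p = 0.20). The cause of these differences was not tested. The 4 A1 copies summed stayed at 1 count or fewer per liver, so that setting gave no test.

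The list genes called numbered 4 against WT (5.8% of all genes were called), 2 against TNFR1KO (2.17%) and 0 against Casp8 MLKL dKO (1.65%). In the same order, DESeq2's Wald test called 7, 4 and 1 list genes, and 14.0%, 7.5% and 5.56% of all genes. Quality weights in limma-voom called 16, 13 and 7, and 30.6%, 25.1% and 15.7% of all genes. Between Casp8 MLKL dKO and WT these weights called 6 list genes and 6.04% of all genes. Without weights, limma-voom called 2 against WT and 1 against Casp8 MLKL dKO. Fits of only the compared genotypes called 0 against WT and 0 against TNFR1KO. With each liver left out, 0 to 8 were called against WT, 0 to 3 against TNFR1KO and 0 to 1 against Casp8 MLKL dKO. For the unweighted limma-voom fit, the fits of compared genotypes and most fits with a liver left out, shares of all genes are not given here.

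Whether replicate numbers pair the livers is not known. Deviations from the genotype means of livers with the same number correlated at -0.30 to 0.27, over 0.1 in 5 of 15 pairs. Livers with different numbers correlated at -0.28 to 0.31, and such values in groups this small cannot settle the question. With the replicate block, *Pmaip1* kept its calls against WT (2.01, edgeR adjusted p = 0.0139) and TNFR1KO (2.07, 0.0424). In that fit 2, 1 and 1 list genes were called against WT, TNFR1KO and Casp8 MLKL dKO, and its share of all genes is not given here. Groups of 2 and 3 livers and 0 counts of the A1 genes limit what could be called.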
